A study of Rattus norvegicus with 22 samples.

Results

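The response to cocaine in rats that had already received a cannabinoid was read from 6 RNA sequencing libraries of the prefrontal cortex, 3 of WIN with cocaine and 3 of WIN alone. They were chosen by their column names and belong to a series of 22 samples. Of the 29663 genes in the deposited table, 15326 were described, namely those that reached an FPKM of 1 in 3 or more of the 12 prefrontal cortex libraries. FPKM is the number of reads on a gene divided by its length and by the depth of the library.

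WIN is a synthetic agonist of the cannabinoid receptors. Its main target in the brain, the CB1 receptor, sits on axon terminals and lowers the release of glutamate and GABA. Cocaine blocks the reuptake of dopamine, noradrenaline and serotonin, and in the prefrontal cortex these transmitters tune the firing of excitatory and inhibitory neurons. Such stimulation is known to start short waves of transcription in neurons, beginning with genes for transcription factors.

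All rats were male and of the Sprague-Dawley strain. The groups used here were WIN with cocaine, WIN, cocaine and control, with 3 RNA libraries each, and the series title places the cannabinoid exposure in adolescence and the cocaine at its first use. The sources used here do not give doses, intervals, ages or the vehicle of the controls, nor say whether each library is 1 animal, so the p-values measure only the spread between these libraries, which may be technical. The table carries gene IDs without names, and 0 of these were found in the reference table given. Genes are therefore given by ID, with no role, and lists of neuronal, glial or other markers were not analysed here, so the tissue label could not be checked against marker genes. These are bulk samples, in which fewer cells of a type and less RNA per cell cannot be told apart.

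The libraries of WIN with cocaine held 22106025 to 27101698 reads and those of WIN 24754334 to 27677077, as recovered from the FPKM values. A gene described here had a median of 488 reads per library. The distance between 2 libraries was taken as the root mean square of their difference in log2(FPKM + 1) over the 15326 genes. The 3 libraries of WIN with cocaine lay 0.308 to 0.325 from each other. WIN replicates 1 and 2 lay 0.258 apart, whereas WIN replicate 3 lay 0.339 from replicate 1 and 0.337 from replicate 2. WIN replicate 3 was nearer to all 3 libraries of WIN with cocaine, at 0.296, 0.295 and 0.295, and nearest to cocaine replicate 3, at 0.265. It was also nearer to cocaine replicate 2, at 0.280, and to control replicates 3 and 1, at 0.289 and 0.299, but farther from cocaine replicate 1, at 0.354, and control replicate 2, at 0.342. It thus lay closer to libraries of every other group, controls included, than to its own, and the main counts below are also given without it.

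**Figure D1:**
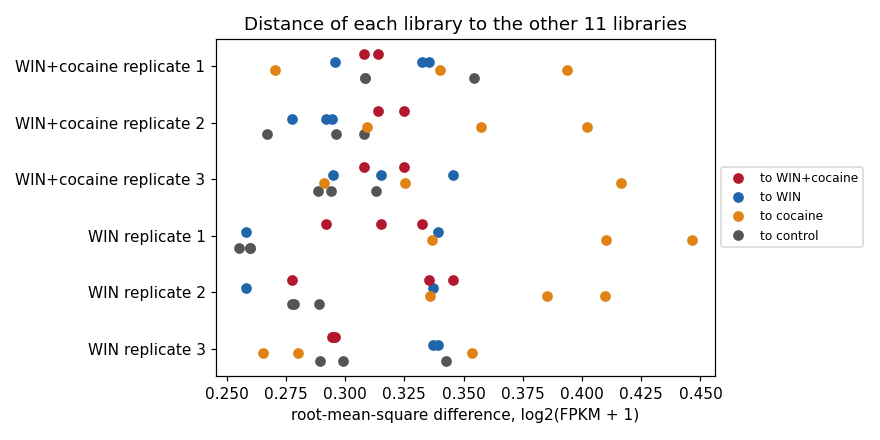
Distance of each WIN with cocaine and WIN library (rows) to each of the other 11 prefrontal cortex libraries, as the root-mean-square difference in log2(FPKM + 1), with 1 point per library coloured by its group. WIN replicate 3 lies farther from the other WIN libraries, at 0.339 and 0.337, than from all 3 WIN with cocaine libraries and from 2 controls.

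The libraries of WIN with cocaine did not form a group of nearest neighbours either. The library nearest to replicate 1 was cocaine replicate 3, at 0.270. The library nearest to replicate 2 was control replicate 3, at 0.267, and that nearest to replicate 3 was control replicate 1, at 0.288. The median gene had an SD of 0.12 on the log2 scale among the libraries of WIN with cocaine, 0.15 among those of WIN, 0.13 among those of cocaine and 0.10 among the controls. The median SD was thus highest in WIN, whereas the farthest pairs within a group were in cocaine, at 0.370 and 0.360.

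No gene was called between WIN with cocaine and WIN, and most differences were small. In limma, with Benjamini-Hochberg adjustment over the 15326 genes, 0 genes passed an adjusted p of 0.05 (0% of those tested), and the smallest adjusted p was 0.975. An unadjusted p under 0.05 was reached by 576 genes, 3.76% of those tested and fewer than the 766 that 5% would give, and limma voom on the recovered reads called 0 genes at an adjusted p of 0.05 and counted 604 at the unadjusted one. The median gene differed by 0.0038 in log2(FPKM + 1), with quartiles of -0.08 and 0.09. A change of at least 1.5-fold on this scale was seen in 85 genes that were higher in WIN with cocaine and 107 that were lower. These counts were 147 and 157 without WIN replicate 3, and 116 and 197 without WIN with cocaine replicate 2. Voom, which adds a small constant to the reads of a gene in place of 1 to its FPKM and so shrinks genes of low level less, gave 231 higher and 284 lower at that size.

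The spread of the libraries sets what this comparison could show. The 95% interval of a gene's log2 difference extended by a median of 0.25 to either side. In 86.7% of the genes the interval lay wholly inside a 1.5-fold change in either direction, and in 96.0% inside a 2-fold change. These are intervals for single genes on the log2(FPKM + 1) scale, and with voom the shares were 74.3% and 91.0%.

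Of the 576 genes, 392 were higher in WIN with cocaine (2.56% of all genes tested) and 184 were lower (1.2%). The lean towards higher genes was smaller in some other fits. A fit of the 6 compared libraries alone gave 249 higher and 206 lower. Leaving out WIN with cocaine replicate 1 gave 213 and 176, and leaving out its replicate 2 gave 508 and 438. Without WIN replicate 3 the counts were 1254 and 1007. In others the lean was of like size or larger. They gave 300 and 115 with the filter raised to 5 FPKM, and 383 and 175 without WIN with cocaine replicate 3. A pseudocount of 0.1 gave 399 and 188. With a control left out, 67.7% to 68.0% of these genes were higher, beside 68.1% of the 576. With all 12 libraries, the higher genes had a median log2 difference of 0.27, with quartiles of 0.22 and 0.37, and 38 of them differed by at least 1.5-fold. The lower genes had a median of -0.33, with quartiles of -0.51 and -0.25, and 41 differed by at least 1.5-fold. The higher genes were also more abundant and longer, with a median FPKM of 14.6 and a median length of 2002.5 bp, beside 6.80 and 1281.5 bp for the lower genes and 9.76 and 1922 bp for all genes. The values of WIN with cocaine lay above all 3 WIN values in 692 genes (4.52%) and below all 3 in 451 (2.94%). Together these are 1143 genes, or 7.46%, beside 6132 genes, or 40%, in which the cocaine values did not overlap those of control. With 3 libraries on each side, random labels would separate a gene in either direction at a rate of 0.1, which the 7.46% did not reach. In cocaine against control limma also called 0 genes with all 12 libraries, at a smallest adjusted p of 0.0596, with 3037 under 0.10. Without WIN replicate 3 it called 2772 at 0.05. That library is not part of this contrast, whose median difference was -0.019 in both fits. Only the spread shared by all groups changed, with a median SE of 0.106 in place of 0.116. Leaving out any other library gave 0 or 1. Library weights gave 2083 and a filter raised to 5 FPKM gave 1142. The replicate block gave 3, and a pseudocount of 0.1, median ratio rescaling and voom each gave 0. The shares without overlap were not compared in a test and were not counted without WIN replicate 3.

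Set against the mean of the controls, the median level of the 392 higher genes was 0.25 in WIN with cocaine, -0.03 in WIN and 0.20 in cocaine, in log2(FPKM + 1). By library these medians were 0.31, 0.18 and 0.22 in WIN with cocaine, against -0.08, -0.09 and 0.08 in WIN, so that WIN replicate 3 again lay nearest to WIN with cocaine. The median level of the 184 lower genes was -0.23 in WIN with cocaine, 0.09 in WIN and -0.09 in cocaine. By library it was -0.24, -0.18 and -0.27 in WIN with cocaine, against 0.09, 0.12 and 0.04 in WIN. The genes were chosen for the distance between WIN with cocaine and WIN, so these levels are a description of where that distance lay: mainly above control in the higher genes, and on both sides of it in the lower ones.

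**Figure D2:**
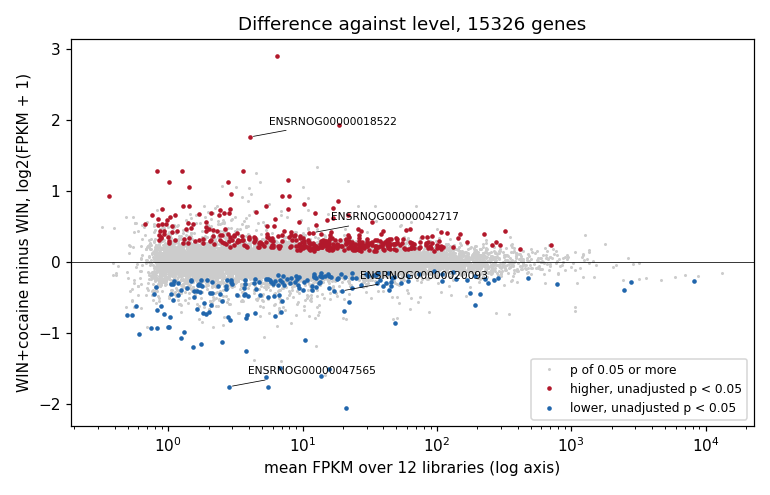
Difference between WIN with cocaine and WIN in log2(FPKM + 1) (vertical) against mean FPKM over the 12 libraries (horizontal, log axis) for 15326 genes, 1 point per gene. The 392 genes higher and 184 genes lower at an unadjusted p under 0.05 are coloured, and the 4 IDs described in the text are named.

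Single libraries are shown for the 2 IDs in each direction that had the smallest p among genes averaging 1 FPKM or more. Their separation follows from that choice, and none passed the adjustment. ENSRNOG00000018522 had an FPKM of 6.24, 7.89 and 11.7 in WIN with cocaine, against 1.83, 1.49 and 1.99 in WIN. The groups did not overlap, and the values rested on 247, 255 and 443 reads in WIN with cocaine, against 74, 58 and 72 in WIN. Its log2 difference was 1.76 with an SE of 0.34 (limma adjusted p = 0.975). In the rats without WIN it had 2.13, 6.32 and 1.88 in cocaine, against 2.07, 1.67 and 3.88 in control, so that the values overlapped and cocaine replicate 2 alone reached the level of WIN with cocaine.

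ENSRNOG00000042717 was higher by a smaller step in a gene of steady level. Its FPKM was 13.2, 13.4 and 14.7 in WIN with cocaine, against 9.14, 10.8 and 10.3 in WIN. The log2 difference was 0.41 with an SE of 0.08 (limma adjusted p = 0.975). The same gene had 12.9, 13.5 and 14.2 in cocaine, against 10.2, 10.2 and 10.96 in control. Both cocaine-treated groups thus lay above both groups without cocaine, with no overlap, and the difference was 0.35 without WIN.

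ENSRNOG00000047565 was lower, at an FPKM of 1.13, 2.63 and 0.590 in WIN with cocaine, against 4.58, 8.42 and 8.10 in WIN. Its log2 difference was -1.76 with an SE of 0.29 (limma adjusted p = 0.975). With a pseudocount of 0.1 the difference was -2.38 and with voom -2.51, since the added 1 is large beside these values. Cocaine libraries had 2.31, 1.01 and 1.40, and control libraries 1.24, 1.66 and 1.23. WIN was the group that stood apart, and the values of WIN with cocaine overlapped those of cocaine and control. ENSRNOG00000020093 was also lower, within a narrower range. Its FPKM was 16.6, 17.1 and 16.3 in WIN with cocaine, against 21.4, 25.3 and 20.9 in WIN. The log2 difference was -0.41 with an SE of 0.09 (limma adjusted p = 0.975). It had 20.3, 19.96 and 20.98 in cocaine, against 17.7, 18.7 and 21.1 in control, so that all 3 values of WIN with cocaine lay below those of the other groups.

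**Figure D3:**
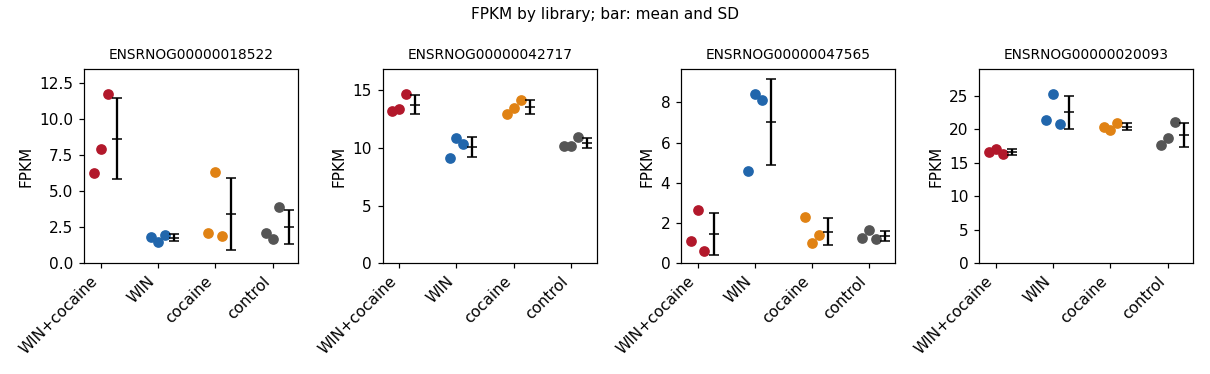
FPKM of the 4 IDs in each library, in the order WIN with cocaine, WIN, cocaine and control, with the mean and SD of 3 libraries as a bar beside the points. ENSRNOG00000042717 is higher in both cocaine-treated groups, at 13.7 in WIN with cocaine and 13.5 in cocaine on average, whereas ENSRNOG00000047565 is raised in WIN alone, at 7.03 on average.

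Genes were also grouped by level, length and kind of ID, which use no difference between the groups. Among 3832 genes with a mean FPKM of 20 to 100, 135 were higher at an unadjusted p under 0.05 (3.52%) and 30 lower (0.783%). Among 5392 genes of 5 to 20 the counts were 134 higher (2.49%) and 59 lower (1.09%). Among 5154 genes under 5 they were 102 higher (1.98%) and 77 lower (1.49%), and among 948 genes over 100 they were 21 higher (2.22%) and 18 lower (1.90%). Most of the large changes lay in the genes of low level, with 54 genes higher and 60 lower by 1.5-fold or more under an FPKM of 5, beside 0 and 5 over an FPKM of 100. Single libraries moved the counts of the class of 20 to 100: they were 48 higher and 30 lower without WIN with cocaine replicate 1, 181 and 93 without WIN with cocaine replicate 2, 62 and 21 without WIN replicate 1, and 52 and 18 without WIN replicate 2. Leaving out each of the 6 libraries gave 75 to 427 higher and 41 to 353 lower genes at 5 to 20, 72 to 186 and 61 to 143 under 5, and 6 to 129 and 7 to 130 over 100. Without WIN replicate 3 the abundant genes had the highest shares: 13.4% were higher and 10.8% lower at an FPKM of 20 to 100, and 13.6% higher and 13.7% lower over 100, beside 3.61% and 2.13% under 5.

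Gene length is given next, with counts that single libraries moved. Of 2922 genes shorter than 1000 bp, 81 were higher and 81 lower at an unadjusted p under 0.05, and of 2027 genes longer than 4000 bp, 56 were higher and 11 lower. Without WIN with cocaine replicate 2 the contrast nearly vanished, with 103 higher and 95 lower in the short genes and 80 and 64 in the long ones. The long genes stood at 22 higher and 3 lower without WIN with cocaine replicate 1, 37 and 16 without WIN with cocaine replicate 3, 20 and 13 without WIN replicate 1, and 17 and 6 without WIN replicate 2. The median log2 difference was -0.02 in the short genes and 0.01 in the long ones, an order that turned round without WIN with cocaine replicate 3, at 0.0088 and 0.00013. Without WIN replicate 3 the short genes stood at 159 higher and 266 lower and the long genes at 235 higher and 92 lower. With the median ratio scaling the counts were 76 higher and 90 lower in the short genes and 40 higher and 13 lower in the long ones. Single libraries of a group disagreed over the short genes: their median deviation from the mean of the 12 libraries was 0.05, -0.0039 and -0.07 in WIN with cocaine, against 0.02, 0.06 and -0.04 in WIN. The groups therefore overlapped in this measure, and whether RNA quality or library preparation differed with it was not tested.

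Genes without an Ensembl ID numbered 1278 of those described. Of these, 21 were higher (1.64%) and 20 lower (1.56%) at an unadjusted p under 0.05, beside 371 higher (2.64%) and 164 lower (1.17%) of the 14048 genes with an Ensembl ID. The balance of directions in the 2 kinds depended on the fit. Without WIN with cocaine replicate 2 the counts were 41 higher and 26 lower without an Ensembl ID, beside 467 and 412 with one. Without WIN replicate 3 they were 52 and 57, beside 1202 and 950, and with voom 35 and 26, beside 341 and 202. Leaving out each of the 6 libraries gave 14 to 52 higher and 13 to 57 lower without an Ensembl ID. The median log2 difference was 0.0022 without an Ensembl ID and 0.0040 with one, and whether the kinds of ID differ was not tested.

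The 576 genes at an unadjusted limma p under 0.05 in WIN with cocaine against WIN were then looked up in cocaine against control. That is the same contrast in rats without WIN, and it shares no library with the first. The values of WIN with cocaine and WIN did not overlap in 236 of the 392 higher genes and 118 of the 184 lower ones. Over all genes tested this held for 4.52% and 2.94%, higher and lower. Of the 392 genes higher after WIN, 79.8% were also higher in cocaine than in control, where 47.1% of all genes were, and 48.2% had an unadjusted p under 0.05 in that direction, beside 15.1% of all genes. Of the 184 genes lower in WIN with cocaine than in WIN, 66.3% were also lower in cocaine, where 52.9% of all genes were. Of the same 184 genes, 22.8% had an unadjusted p under 0.05 in that direction, beside 16% of all genes. The median log2 difference of the higher genes was 0.27 in WIN with cocaine against WIN and 0.20 in cocaine against control, and that of the lower genes -0.33 and -0.09. Both contrasts take each gene's spread from the same 12 libraries, so a gene of small spread reaches a small p more easily in both.

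How far this likeness went depended on single libraries. Without WIN replicate 3, 1254 genes were higher at an unadjusted p under 0.05 and 1007 lower (8.18% and 6.57% of those tested), and 94.8% and 92.3% of them had the same sign in cocaine against control. Their median differences were then of like size in both contrasts, 0.31 and 0.30 for the higher genes and -0.26 and -0.26 for the lower ones. Without WIN replicate 1 the shares were 56.1% of the 223 higher genes and 54.8% of the 166 lower ones. Without WIN with cocaine replicate 1 they were 61.5% of 213 and 57.4% of 176, and without WIN replicate 2 they were 70.3% of 232 and 63.8% of 127. Leaving out WIN with cocaine replicate 2 gave 82.5% of 508 and 68.0% of 438, and leaving out its replicate 3 gave 82.0% of 383 and 78.9% of 175. With a control or cocaine library left out, the shares were 76.4% to 83.3% of the higher genes and 62.8% to 68.6% of the lower ones. The value without WIN replicate 3 rests on 2 WIN libraries, which lay 0.255 and 0.277 from the nearest control. WIN replicate 3 had been singled out by its distances, with cocaine replicate 3 the nearest library to it, at 0.265. Part of the larger likeness without WIN replicate 3 may follow from that choice, which was not tested. The shares of 94.8% and 92.3% therefore add no support.

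**Figure D4:**
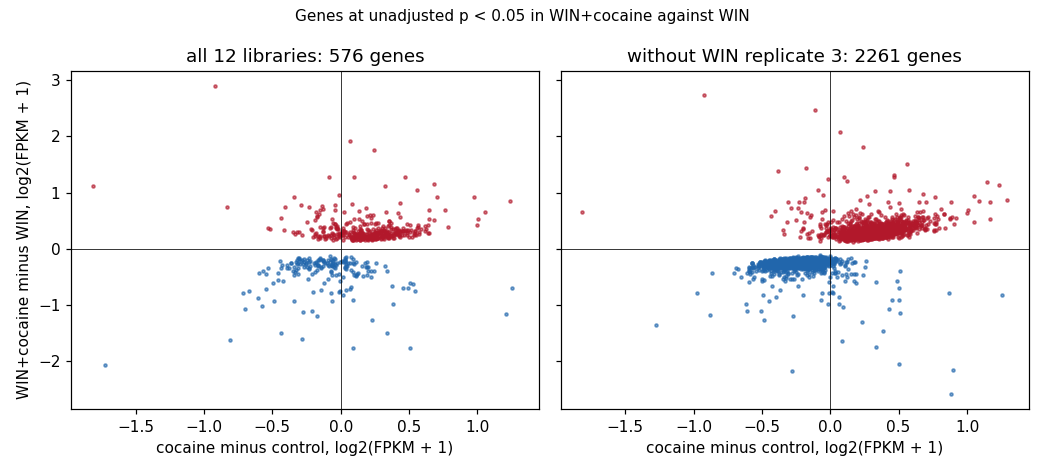
Log2 difference of WIN with cocaine against WIN (vertical) and of cocaine against control (horizontal) for the genes at an unadjusted p under 0.05 in WIN with cocaine against WIN, 1 point per gene, with all 12 libraries (left, 576 genes) and without WIN replicate 3 (right, 2261 genes). Points in the upper right and lower left have the same sign in both. Their share is larger on the right, at 94.8% of the higher and 92.3% of the lower genes. WIN replicate 3 was singled out by its distances to the other libraries. Whether part of the larger share follows from that choice was not tested.

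The interaction, the difference between the cocaine change after WIN and the cocaine change without it, was not called in any gene. Limma called 0 genes at an adjusted p of 0.05 (0% of those tested), with a smallest adjusted p of 0.539, and voom called 0. Beside the 766 that 5% would give, limma had 1382 genes (9.02%) below an unadjusted p of 0.05. That count was 857 when WIN with cocaine replicate 3 was left out, 789 for WIN replicate 3, 899 for cocaine replicate 1, 596 for control replicate 2 and 1029 to 2062 for each of the other 8 libraries. Only the count without control replicate 2 was below 766. The 95% interval of a gene's interaction extended by a median of 0.36 to either side, and it lay wholly inside a 1.5-fold difference in 58.2% of the genes and inside a 2-fold difference in 90.0%. Of the 4 IDs, ENSRNOG00000018522 showed an interaction of 1.52 (SE 0.48) and ENSRNOG00000047565 of -1.85 (SE 0.41), both at a limma adjusted p of 0.539. ENSRNOG00000020093 stood at -0.50 (SE 0.12) and ENSRNOG00000042717 at 0.06 (SE 0.11), the only one of the 4 whose cocaine change was of like size with and without WIN. The IDs were chosen on a contrast that enters the interaction, so part of the first 3 values follows from the choice.

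Leaving out 1 library at a time showed which libraries the comparison rested on. With WIN replicate 3 left out, 2261 genes had an unadjusted p under 0.05, or 14.8% of the genes tested, and with WIN with cocaine replicate 2 left out, 946 had one. The number was 359 without WIN replicate 2. Leaving out each of the other 9 libraries gave 389 to 657. In each of these 12 limma fits 0 genes passed an adjusted p of 0.05, and the smallest adjusted p was 0.114 without WIN replicate 3 and 0.102 without WIN with cocaine replicate 2. The interval of a gene's difference lay inside a 1.5-fold change in 79.8% of the genes without WIN replicate 3.

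**Figure D5:**
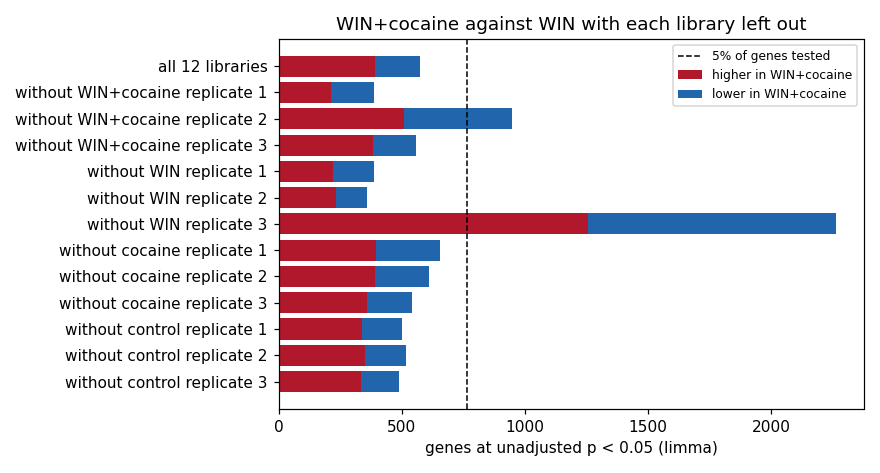
Number of genes at an unadjusted p under 0.05 in WIN with cocaine against WIN (horizontal), higher and lower stacked, with all 12 libraries and with each library left out (rows). The dashed line marks 5% of the genes tested, 766; only the fits without WIN replicate 3 (2261) and without WIN with cocaine replicate 2 (946) pass it.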

How the data were processed

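Per the labels' protocols, RNA was extracted with Trizol and 1 µg entered a stranded kit. The authors deposited FPKM values, 1 column per library, and name HISAT2, HTSeq and DESeq (the submitters' processing notes). The sources used here do not give the build, the annotation or the strand setting, so overlapping genes and close paralogs may share reads. Columns were matched to samples by the labels. Within each of 24197 genes with a value above 0, values divided by a library factor are whole multiples of a step (tolerance 0.02 reads). The largest such step gave back the reads, up to a divisor shared by all values of a gene, and from them the gene lengths. Of 11615 genes that exceeded 200 reads, 99.98% had a length within 0.03 bp of a whole number, against 6.0% by chance. Genes with fewer reads were not checked in this way. Chi-square per degree of freedom between any 2 libraries was 7.59 or more, so no pair of libraries agreed within sampling noise.

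limma 3.58.1 in R 4.3.3 was fitted to log2(FPKM + 1) of the 12 prefrontal cortex libraries, with a mean per group and a trended prior variance. This scale understates changes of genes with low values. The IDs named are the 2 in each direction with the smallest p at a mean FPKM of at least 1, the rule set for IDs without symbols. The comparison, gene set and lists were chosen with earlier results of these data known. The 37 gene lists and 22 genes fixed by symbol were not analysed here, since 0 IDs matched the reference (GRCr8, 47357 genes); classes by level, length and ID were used in their place and were chosen after the data were seen. The fit was tested on simulated data. The ATAC libraries and the 6 nucleus accumbens libraries were not used here.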

Additional observations from a re-analysis of the deposited data

How the results depend on the processing

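For WIN with cocaine against WIN, limma called 0 genes in each of 21 alternatives: another pseudocount, 2 other filters, median ratio rescaling, the 6 compared libraries alone, library weights, the replicate block, voom, a threshold of 0.10 and each library left out. The count at an unadjusted p under 0.05, 576 here, was 1026 with every gene that had a value above 0 (24197 genes tested), 2115 with library weights, where WIN replicate 3 had the lowest weight, 0.296, and 359 (no WIN replicate 2) to 2261 (no WIN replicate 3) with a library left out. With the median ratio rescaling, 334 were higher and 226 lower. The interaction stayed at 0 genes except without control replicate 1 and without control replicate 2, with 1 gene each, a different one in each fit and neither among the 4 IDs, so that leaving out a library gave 0 to 1; the cause was not tested. Each of the 4 IDs had the same direction in its alternatives, 19 for ENSRNOG00000047565 and 20 for each of the others, with limma adjusted p from 0.102 to 1.00; they were chosen on these libraries, so this adds no support. With the replicate number as a block the comparison called 0 genes and counted 563 at an unadjusted p under 0.05. The numbers gave no pairing: deviations of same-numbered libraries of the 2 groups correlated at -0.08, 0.20 and 0.07. Of these 3 pairs only WIN with cocaine replicate 2 and WIN replicate 2 correlated best with each other. Among libraries of unlike number, WIN with cocaine replicate 1 and WIN replicate 3 also did so, at 0.09. The same held for WIN with cocaine replicate 3 and WIN replicate 1, at 0.08. The planned gene lists could not be run without symbols.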
